A study of Drosophila melanogaster with 4 samples.

Results

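The left arm of the second chromosome, 2L, carried 2267 of the 14384 Su(H) peaks deposited for the Drosophila melanogaster cell line Kc167, or 15.8% of the list. The members are all peaks that the file places on 2L itself. The 3 peaks on the heterochromatic scaffold 2LHet, with scores of 54.7 to 287.3, are not among them. The study used chromatin immunoprecipitation with sequencing (ChIP-seq), in which DNA crosslinked to a protein is pulled down with an antibody and sequenced. The samples were 3 Su(H) ChIP libraries, made with a rabbit polyclonal antibody against residues 259 to 594 of Su(H), and 1 library of input DNA, from chromatin that was not immunoprecipitated. All 4 libraries came from Kc167, a single line grown from embryos, labelled female, of late embryonic stage and of genotype se/e. Per the labels' protocols, cells were fixed with 1.8% formaldehyde for 15 minutes.

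Su(H), Suppressor of Hairless, binds DNA at the enhancers of Notch target genes. Together with its corepressor Hairless it keeps such genes off. When a ligand on a neighbouring cell triggers cleavage of the Notch receptor, the receptor's intracellular part enters the nucleus and joins Su(H) and the coactivator Mastermind, and the genes are switched on. In flies these genes direct the choice between neuron and epidermis, the wing margin and the growth of blood cells. On 2L the coordinates run from the telomere to the centromere. Positions are those of FlyBase release 5, and genes at the peaks were not analysed here because no annotation of that release was used.

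The 3 ChIP libraries are represented by 1 list, with a start, an end and 1 score per peak. No value per library was used, so nothing below has a replicate error, and the depth of the libraries is unknown. No difference between arms or between parts of 2L was tested. The 95% intervals are exact, cover counting error over peaks only and are too narrow where peaks lie in groups. The score behaved as an unadjusted −log10 Poisson p-value. All 92 scores that were under 40 and shared by at least 25 peaks fell, within 0.015, on the values that whole fragment counts give against a genome-wide background of 195.927 fragments. That background was fitted to place as many of these scores as possible on this scale, so their number is not a separate check. Peaks whose score fits this scale to within 0.0075 are called on the ladder. The others, off the ladder, have scores that this background does not give, as when the caller used a higher local background. A fold over background was read from each score, and it is an upper bound for peaks off the ladder.

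Most 2L peaks stood little above their background, and a minority were tall and wide. Scores on 2L ran from 6.08 to 1004.54, with a median of 17.4 and quartiles of 12.5 and 28.4. Fold over background had a median of 1.67 on 2L, as an upper bound. A fold of 2 or more could be reached by 470 peaks (20.7%), against 21.1% of the whole list, and a fold of 4 or more by 119 (5.25%), against 5.65%. These shares are upper bounds and not like measures, because 54.0% of 2L peaks but 32.4% of the list were off the ladder. Strong peaks are those with the 10% highest scores of the list (106.8 or above), and 214 peaks of 2L were strong (9.44%, 8.27% to 10.7%), against 10.0% of the list. Weak peaks are those with the 50% lowest scores (16.1 or below), and 1006 peaks of 2L were weak (44.4%, 42.3% to 46.4%), where the list has 50% by definition. Peaks between these limits are called intermediate. The strong peaks held 31.3% of the sequence covered by peaks on 2L, and the weak peaks held 20.1%. All peaks of 2L together covered 1759 kb, or 7.66% of the arm up to the end of its last peak at 22972862.

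Peaks off the ladder were the majority on 2L. They numbered 1224 (54.0%, 51.9% to 56.1%), against 32.4% of the whole list and 27.2% of the peaks on the other 4 long arms pooled. They were spread very unevenly along the arm. What raised it in some windows, and its part in the number of peaks called there, was not tested.

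From telomere to centromere, 2L opened with a crowded first Mb, passed through 8 Mb with few peaks, and then alternated between crowded and sparse parts. The first peak lay at 59257 to 59558, with a score of 31.05, and the last at 22972662 to 22972862, with a score of 11.54. The first Mb held 229 peaks, 21 of them strong and 59.8% of them off the ladder, which covered 224 kb, the largest covered length of the 22 complete windows of 1 Mb. The second Mb held 86 peaks, and 81.4% of them were off the ladder, the highest share of any complete window. The count fell away to 48 peaks in the third Mb, 29 in the fourth and 12 in the fifth, the lowest of all. It then stood at 38, 37, 27, 78 and 39 peaks in the following 5 windows, up to 10 Mb.

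**Figure D1:**
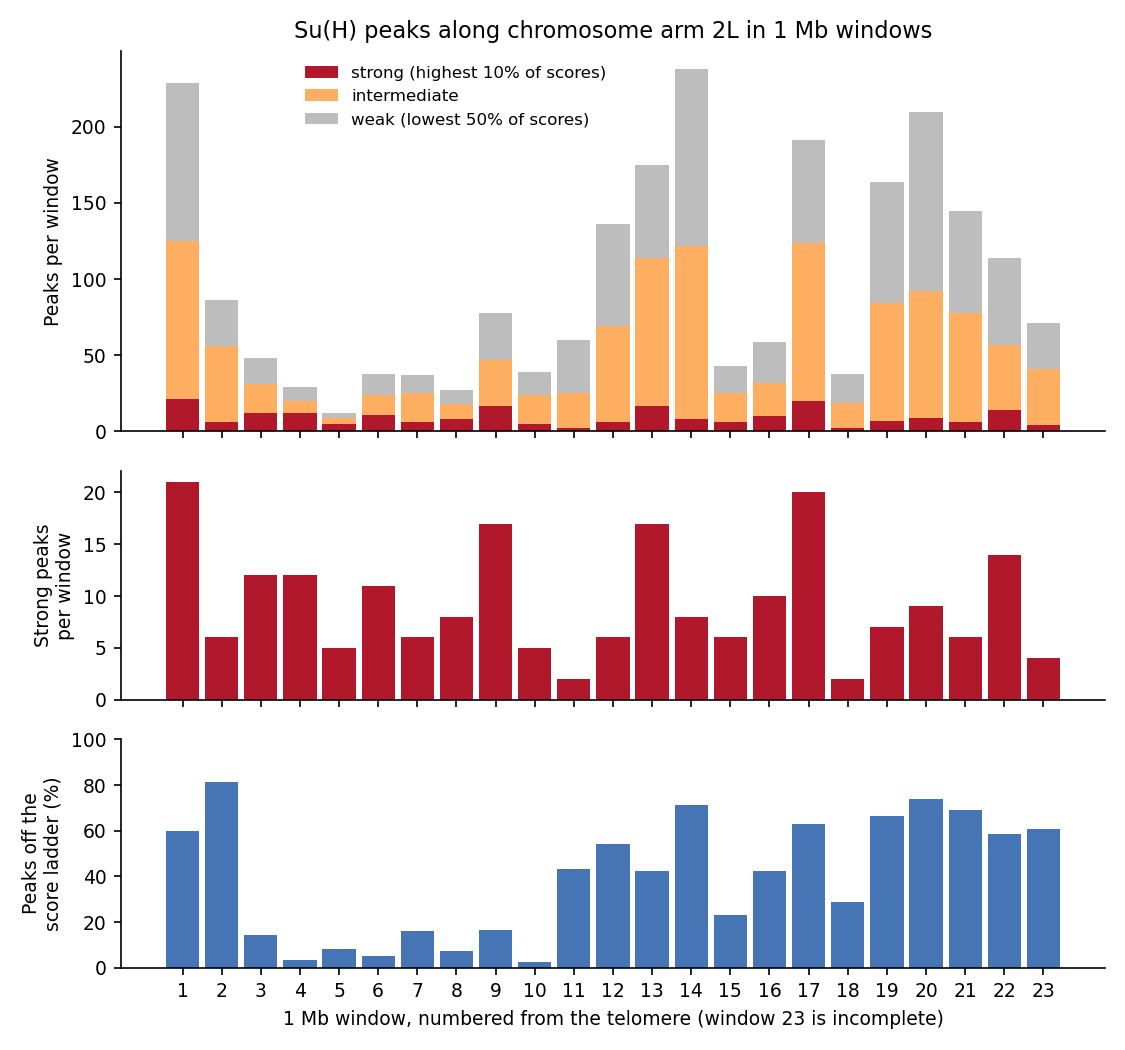
Peaks per 1 Mb window of 2L, stacked by score class (top), strong peaks alone (middle) and the percentage of peaks off the score ladder (bottom), in windows numbered from the telomere. Windows 3 to 10 hold 12 to 78 peaks each with 2.56% to 16.7% off the ladder, while strong peaks there number 5 to 17 per window.

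Beyond 10 Mb the counts went up and down from window to window. The eleventh Mb held 60 peaks, only 2 of them strong and none scoring above 108.2. From 11 to 14 Mb the windows held 136, 175 and 238 peaks, and the last of these was the highest count of the arm. Off the ladder were 54.4%, 42.3% and 71.4% of them. The next windows held 43 and 59 peaks, with 23.3% and 42.4% off the ladder. The window from 16 to 17 Mb held 191 peaks, of which 20 were strong and 62.8% off the ladder, and the one from 17 to 18 Mb held 38, of which 2 were strong and 28.9% off. From 18 to 21 Mb there were 164, 210 and 145 peaks, with 66.5%, 73.8% and 69.0% off the ladder. Toward the centromere the count was 114 from 21 to 22 Mb and 71 in the incomplete last window. The 9 windows with more than 100 peaks held 1602 peaks, or 70.7% of the arm. Over the 22 complete windows, which are neighbours on the same arm, Spearman's rho between the number of peaks and the off-ladder share was 0.83.

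The sparse part from 2 to 10 Mb had fewer weak and intermediate peaks per Mb than the rest of 2L, but a similar density of strong ones. Its limits were chosen with its values known, so the comparison with the rest of 2L is a description. Weak and intermediate peaks made 45.7% and 47.2% of the peaks on the rest of 2L. Their low density therefore follows in part from the choice of a stretch with few peaks. The sparse part held 308 peaks, or 38.5 per Mb (34.3 to 43.0), against 131 per Mb (125 to 137) on the rest of 2L. Weak peaks stood at 13.8 per Mb there, against 59.8 per Mb on the rest, and intermediate peaks at 15.3 per Mb (12.7 to 18.2), against 61.8 per Mb (57.9 to 65.9). Strong peaks stood at 9.50 per Mb there (7.48 to 11.9), against 9.22 per Mb (7.74 to 10.9). Off the ladder were 10.7% of the peaks there, against 60.8% on the rest, so the score classes are not like measures. The 76 strong peaks there made 24.7% of its peaks, against 7.04% on the rest of the arm. These strong peaks were narrower, with a median width of 1774 bp against 2251 bp on the rest, and had a median score of 208.0 against 242.7. Of the strong peaks, 6.58% were off the ladder from 2 to 10 Mb, against 40.6% on the rest of 2L. Over all of 2L, strong peaks had a median width of 2459 bp off the ladder and 1892 bp on it. The part of the ladder in the width difference was not tested.

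Peaks in the sparse part were farther apart, which follows in part from its choice as a stretch with few peaks. The median gap from the end of a peak to the start of the next was 3843 bp from 2 to 10 Mb, against 610 bp on the rest of 2L. Gaps under 1 kb were 35.9% of all gaps there, against 62.7% on the rest. Of its 80 windows of 100 kb, 16 had no peak, against 23 of the 150 windows on the rest. Peak-free stretches of 100 kb or more made up 45.2% of it, against 33.3% of the rest. Lone peaks were a larger share of all peaks there. No other peak lay within 10 kb of 61 of its 308 peaks (19.8%), against 66 of the 1959 peaks on the rest of 2L (3.37%). Among strong peaks these counts were 22 of 76 (28.9%, 19.1% to 40.5%) and 18 of 138 (13.0%, 7.92% to 19.8%).

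In windows of 100 kb, the peaks of 2L were gathered into a small part of the arm. A peak was counted in the window of its midpoint. The median window held 5 peaks, and 39 of the 230 windows held 0 (16.96%, 12.3% to 22.4%). The 42 windows with 20 or more peaks held 1410 peaks, or 62.2% of those on 2L. Most peaks, 55, lay from 11000001 to 11100000, where 3 were strong and 41.8% off the ladder. Next came 51 peaks from 800001 to 900000 and 50 peaks from 1100001 to 1200000, of which 49 each were off the ladder. The windows from 18600001 to 18700000, with 45 peaks, 62.2% of them off the ladder, and from 12000001 to 12100000, with 44, of which 56.8% were off, completed the 5 richest.

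The windows with the largest covered length were only in part the same ones. The window from 500001 to 600000 came first, with 63.2 kb under 40 peaks, 39 of them off the ladder. It was followed by the windows from 12000001 to 12100000 with 48.6 kb under peaks and from 1100001 to 1200000 with 48.6 kb. The window from 400001 to 500000 had 45.7 kb covered by 42 peaks, of which 45.2% were off the ladder. The window from 800001 to 900000 had 38.1 kb covered. So 4 of the 5 windows with the largest covered length lay in the first 1.2 Mb, and 2 of them, from 400001 to 600000, are neighbours.

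**Figure D2:**
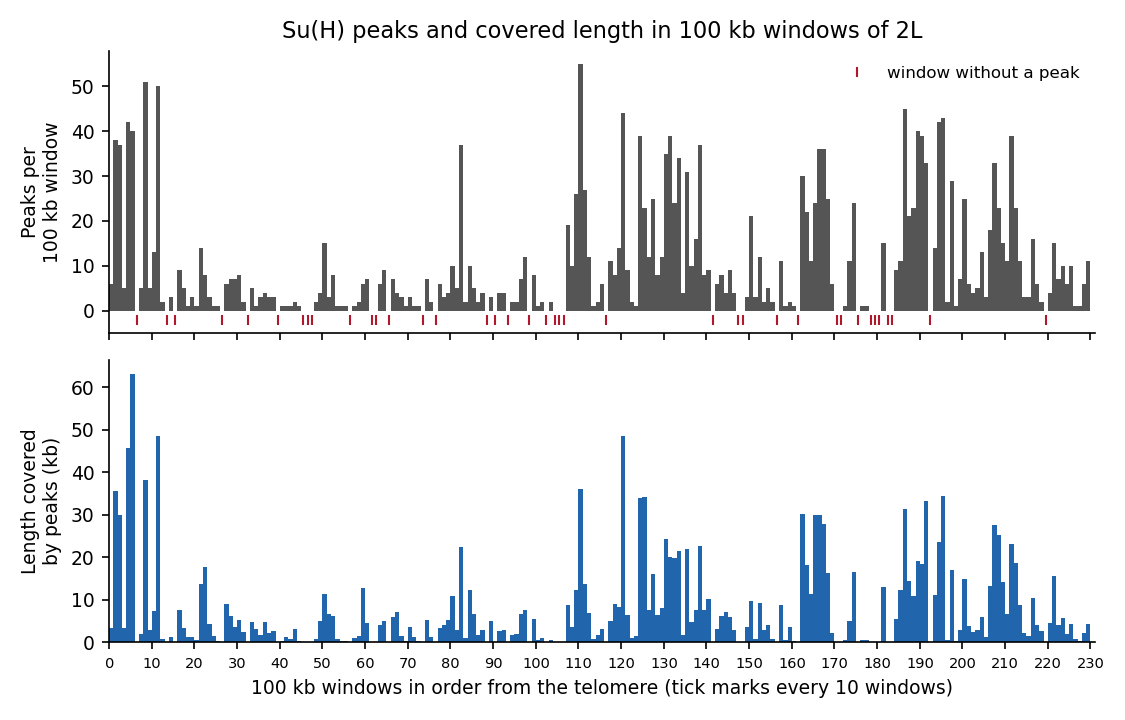
Number of peaks (top) and length covered by peaks in kb (bottom) in the 230 windows of 100 kb of 2L, in order from the telomere, with red ticks for the 39 windows without a peak. The richest window holds 55 peaks, and the largest covered length is 63.2 kb.

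Whether a window's peaks were on or off the ladder was also a matter of place. Among the 74 windows of 100 kb with 10 or more peaks, 6 had at least 90% of their peaks off the ladder and 10 had at most 10% off. The window from 500001 to 600000, with 97.5% off the ladder, directly follows one with 45.2%.

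Peak-free stretches of 100 kb or more numbered 50 on 2L and made up 37.4% of the arm, or 8594 kb. The longest ran for 394 kb, from 10335168 to 10729228. The second was 367 kb long, from 16910348 to 17277269, and the third 353 kb, from 17778729 to 18132091. The fifth, of 284 kb, ran from 18158337 to 18442301, and all that lay between it and the third was the group of 15 peaks in the window from 18100001 to 18200000. The fourth, of 333 kb, ran from 4477310 to 4810780 and lay in the window with the fewest peaks. The sixth, also of 284 kb, ran from 14689819 to 14973705.

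The remaining 4 of the 10 longest were from 5543304 to 5799373 (256 kb), from 15503663 to 15745046 (241 kb), from 6088901 to 6323789 (235 kb) and from 9238427 to 9448136 (209.7 kb). The peaks at the edges of these 10 stretches included 6 strong and 7 weak among the 20. Over all peaks of 2L, 9.44% were strong and 44.4% weak. The highest of these edge peaks, with a score of 331.84, opened the sequence after the stretch that ended at 15745046. Of the 50 stretches of 100 kb or more, 22 lay from 2 to 10 Mb and 28 lay elsewhere. For strong peaks alone, the longest gap was 1014 kb, from 17430823 to 18444455, and the median gap was 54.6 kb.

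**Figure D3:**
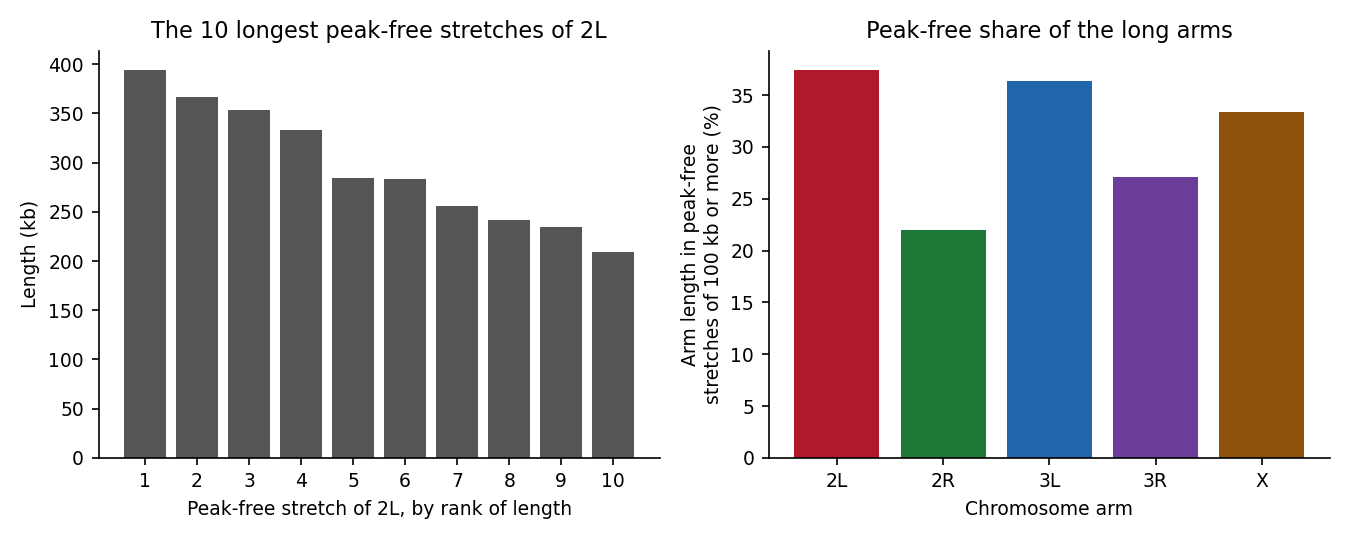
Length in kb of the 10 longest peak-free stretches of 2L by rank (left), and percentage of each long arm that lies in peak-free stretches of 100 kb or more (right). The stretches shown run from 394 to 209.7 kb, and the share is 37.4% on 2L, 22.0% on 2R, 36.4% on 3L, 27.1% on 3R and 33.4% on X.

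The 10 highest peaks of 2L had scores of 723.82 to 1004.54 and folds over background of 7.43 to 8.998, and 9 of them lay between 11 and 17 Mb. Of all 2L peaks, 24.2% lay from 11 to 14 Mb, 4.50% from 14 to 16 Mb and 8.43% from 16 to 17 Mb. These parts held 31, 16 and 20 of the 214 strong peaks, and the span was chosen with the positions known. The highest and second-highest of the 10 were neighbours in a sparse window. The peak from 14489199 to 14492309 scored 1004.54 and was 3111 bp wide, and the one from 14408200 to 14411495 scored 950.53 and was 3296 bp wide. No peak lay in the 77703 bp between them. The peak that ends at 14411495 had no other peak within 10 kb, and the one that starts at 14489199 had 2. They ranked 4 and 5 in the whole list by score, but 439 and 386 by width.

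The other 8 high peaks had 7 to 13 other peaks within 10 kb, against a median of 8 over all peaks of 2L. The third, from 13510871 to 13515762 with a score of 877.05, had 8 peaks within 10 kb, and the fourth, from 13059118 to 13061401 with a score of 823.26, had 7. The fourth was the narrowest of the 10, at 2284 bp. Another 3 lay within 70 kb of each other, from 12480722 to 12486021 (score 813.34), from 12503962 to 12510623 (787.33) and from 12542102 to 12546871 (747.46). The first of these had 50 other peaks within 50 kb. The remaining peaks were from 485374 to 493380 (805.03), from 16682690 to 16687183 (767.77) and from 11803776 to 11809598 (723.82). Of the 10, only the peak near the telomere, from 485374 to 493380, was off the ladder. Among all 214 strong peaks of 2L, 61 were off the ladder. The next score below the 10 was 697.86.

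The widest peaks lay elsewhere, and 6 of the 10 were in the first Mb. That Mb held 10.1% of the 2L peaks and 21 of the 214 strong ones, and the span was chosen with the positions known. The peak from 513717 to 527840 was 14124 bp wide with a score of 542.67, and the one from 543923 to 556134 was 12212 bp wide with a score of 305.86. They ranked 3 and 4 in the whole list by width. In the same Mb were the peaks from 485374 to 493380 (8007 bp), from 465382 to 472859 (7478 bp), from 243390 to 250786 (7397 bp) and from 126942 to 133922 (6981 bp). The peak of 7478 bp had a score of only 138.16, which ranked 180 on the arm. Outside the first Mb were those from 2195809 to 2205060 (9252 bp), from 19157795 to 19166524 (8730 bp), from 2749345 to 2756327 (6983 bp) and from 16266030 to 16272728 (6699 bp). So 2 of the 10 widest lay in the otherwise sparse part from 2 to 10 Mb, which held 13.6% of the 2L peaks. The next width below the 10 was 6662 bp.

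Only the peak from 485374 to 493380 was among both the 10 highest and the 10 widest. Of the 10 widest, 7 were off the ladder, against 54.0% of all 2L peaks. Folds over these 10 ran from 3.26 to 7.90 and are upper bounds for those 7. Peaks of 3 kb or more numbered 78 on 2L (3.44%, 2.73% to 4.28%), against 3.35% of the list, and those of 5 kb or more numbered 22 (0.970%, 0.609% to 1.47%), against 0.869% of the list. Over the 2267 peaks, score and width had a Spearman's rho of 0.76, against 0.75 on the other 4 long arms. Peaks of 1 list share their libraries, and the caller may extend a taller peak further, which was not tested, so this is a description only.

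**Figure D4:**
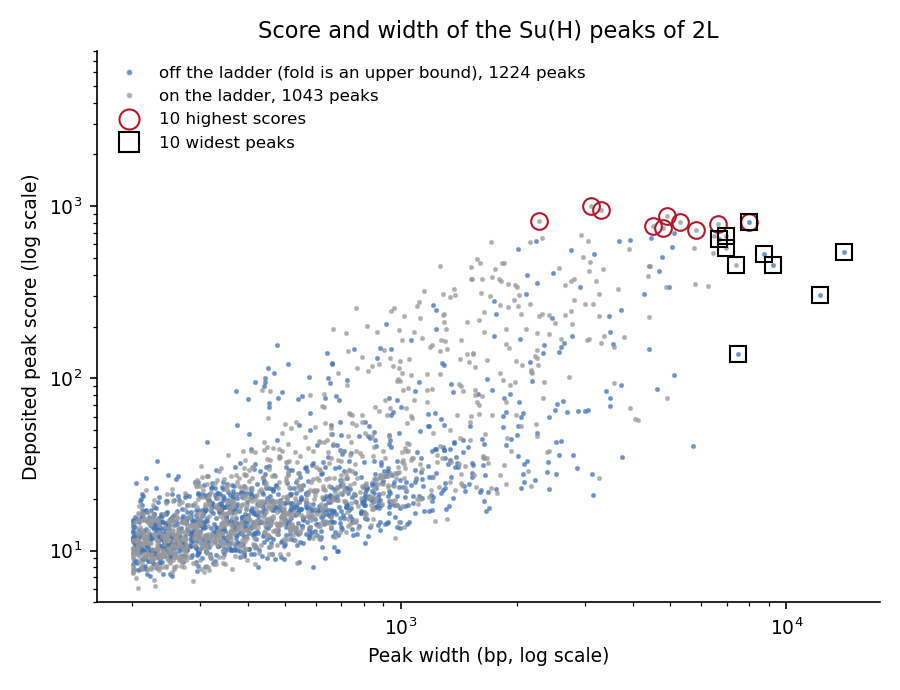
Deposited score against width in bp of the 2267 peaks of 2L (both axes logarithmic), with the 10 highest scores circled and the 10 widest peaks boxed. A single peak, 8007 bp wide with a score of 805.03, carries both marks.

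Joining peaks under 1 kb apart gave 928 regions on 2L, of which 479 (51.6%) were single peaks, against 52.1% on the other 4 long arms together. The widest region covered 42490 bp, from 465382 to 507871, with 18 peaks over 91.0% of its length. It was followed by a region of 33918 bp from 11986883 to 12020800, with 24 peaks and a highest score of only 86.5. The third, of 30976 bp from 11037285 to 11068260, also had 24 peaks. The fourth, of 28693 bp from 534399 to 563091, lay close to the first and had 13 peaks. The fifth, of 26065 bp from 16251085 to 16277149, had 18 peaks and reached a score of 648.41. Wide regions on 2L thus included both ones with tall peaks and ones made of many low peaks.

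Over peaks of all scores, 2L had a lower density than the long arms 2R, 3R and X and a higher one than 3L. It held 98.7 peaks per Mb (94.7 to 103), against 120.4 per Mb on the other 4 pooled, a ratio of 0.820 (0.783 to 0.857). The ratio was 0.640 (0.607 to 0.676) to 2R, 0.763 (0.724 to 0.804) to 3R, 0.882 (0.833 to 0.934) to X and 1.11 (1.05 to 1.18) to 3L. With only the peaks on the ladder, the ratio to the 4 arms together was 0.518 and that to 3L turned to 0.794. The ratio to 3L was also below 1, at 0.964, after peaks under 1 kb apart were joined. With the upper 50% of scores, the ratio to the 4 arms together was 0.963 (0.905 to 1.02). On that setting the ratio was 0.759 to 2R, 0.978 to 3R and 1.16 to 3L, and that to X turned to 1.01. The share of 100 kb windows without a peak was 16.96% on 2L, 9.43% on 2R, 15.9% on 3L, 8.96% on 3R and 14.7% on X. The richest 10% of the windows held 41.1% of the peaks on 2L, against 29.2% on 2R, 40.5% on 3L, 30.8% on 3R and 33.0% on X.

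Peak widths on 2L were close to those of the other arms. The median width was 455 bp (quartiles 295.5 and 832.5 bp) on 2L, against 452 bp (294.75 and 835 bp) on the other 4 together, and single arms had medians of 436 to 463 bp. The narrowest width, 201 bp, was the smallest in the whole list and was shared by 17 peaks of 2L. Within each score class, 2L was slightly to the narrow side of the 4 arms together. Weak peaks had a median width of 298 bp on 2L and 314 bp on the 4 arms, intermediate peaks 628 and 675 bp, and strong peaks 2033 and 2218 bp. The strong peaks of 3L were narrower still, with a median of 1947 bp. Intermediate peaks on the ladder had a median of 623 bp on 2L and 709.5 bp on the 4 arms. Off the ladder, intermediate peaks of 2L were not narrower, at 634 bp against 627.5 bp. Weak and strong peaks off the ladder were narrower on 2L, at 299 against 306 bp and 2459 against 2633 bp.

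Spacing on 2L combined short gaps with long ones. The median gap was 704 bp (631 to 760) on 2L, against 762 bp (730 to 794) on the other 4 arms together, a ratio of 0.924. Single arms had medians of 720 bp on 2R, 847.5 bp on 3L, 736 bp on 3R and 795 bp on X. After peaks under 1 kb apart were joined this ratio turned to 1.30, and with only peaks on the ladder to 1.98. At the long end, gaps of 100 kb or more were 2.21% of all gaps on 2L, 0.952% on 2R, 2.38% on 3L, 1.30% on 3R and 1.76% on X. At the short end, 59.1% of the gaps on 2L were under 1 kb, against 55.7% on the 4 arms together, with 52.9% on 3L and 57.5% on 2R at the extremes.

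**Figure D5:**
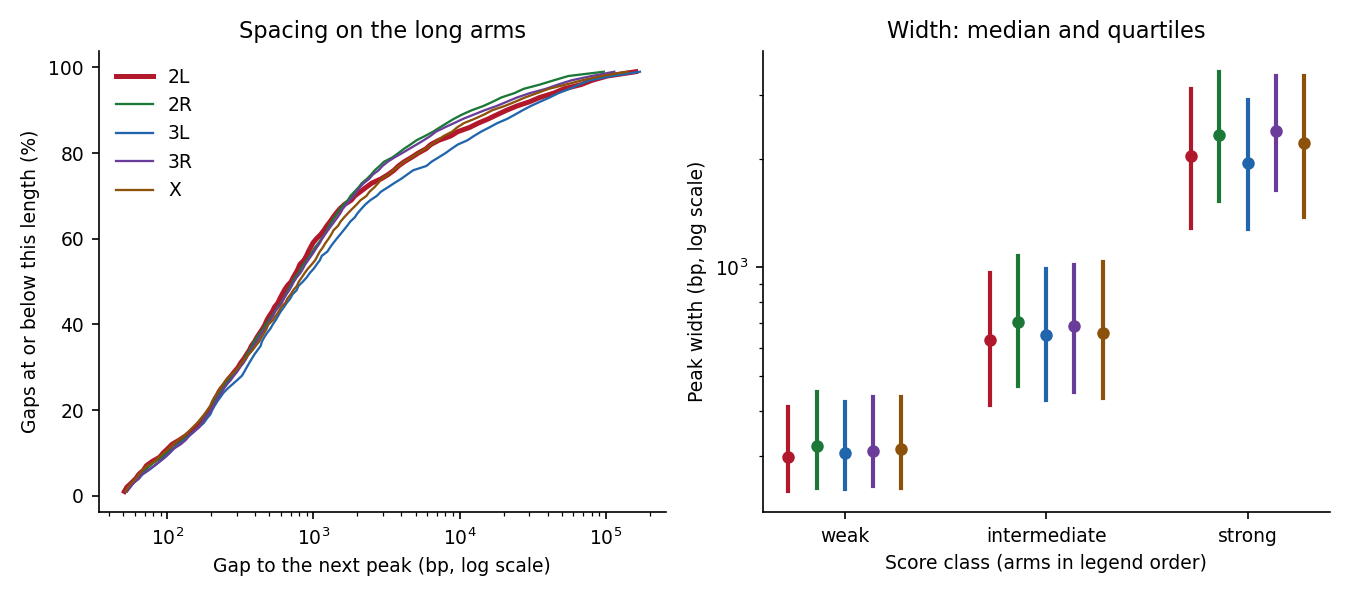
Cumulative percentage of gaps between neighbouring peaks by length in bp (left, log axis) and peak width in bp by score class, as medians (points) with quartiles (lines) on a log axis (right), for the 5 long arms. The curve of 2L is among the highest near 1 kb and below those of 2R, 3R and X at 10 kb, and the widths of the arms overlap in each class.

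Long chains of peaks and strong peaks that stood alone were counted on each arm. Regions that joined 10 or more peaks numbered 23 on 2L and held 14.03% of its peaks, against 7.34% on 2R, 10.7% on 3L, 9.12% on 3R and 5.92% on X. The longest chains, of 24 peaks, compare with at most 21 on the other arms. Strong peaks with no other peak within 10 kb were 40 of 214 on 2L (18.7%, 13.7% to 24.6%), against 24 of 276 on 2R (8.70%), 40 of 254 on 3L (15.7%), 27 of 329 on 3R (8.21%) and 30 of 284 on X (10.6%). Over peaks of all scores the share was 5.60% on 2L, 3.13% on 2R, 6.78% on 3L, 3.35% on 3R and 4.36% on X, so that 3L stood above 2L. Of the 40 on 2L, 22 lay from 2 to 10 Mb.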

How the data were processed

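Su(H) binding in Kc167 was measured in 3 ChIP libraries, with 1 input library. The authors deposited 1 list of peaks with a start, an end and a score per peak, on FlyBase release 5 coordinates per the file headers, with MACS as the source. The submitters' processing notes name BWA, MACS2, CASAVA (1.7.0.2, 1.7.0.3) and the build BDGP5. Neither the calling threshold nor which libraries were pooled is given in the sources used here. Without values of single libraries, no test over samples was made, and depth is unknown.

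The scale of the score was fitted as a background mean between 10 and 500, refined on all peaks. In 3 simulated sets of 14384 scores the background erred by at most 0.001, and 4.69% to 6.12% of off-ladder scores fell on the ladder. Windows were counted from position 1, and arm length is the end of the last peak. Gaps run from the end of a peak to the start of the next. Intervals are exact Poisson, binomial, conditional binomial (ratios) or order-statistic (medians).

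The rule for named regions was the 10 highest and 10 widest peaks, the 10 longest peak-free stretches, the 5 windows with most peaks and with the largest covered length, the 5 widest joined regions, and the first and last peak. Members, limits and classes were chosen with earlier results of these data known. The isolation of strong peaks, the long chains of peaks and the windows split by ladder share were chosen after their values were seen. No sequence is shown, and the gene table of release 6 was not used. Alternatives kept the upper 50% of scores, joined peaks under 1 kb apart, kept peaks on the ladder, shifted windows, changed the arm length or the spacing measure, or fitted 2L alone. The tools were SciPy 1.17.1, pandas 2.3.3 and NumPy 2.4.6 in Python 3.11.15, with matplotlib 3.10.9.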

Additional observations from a re-analysis of the deposited data

How the results depend on the processing

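Of 28 values recomputed under alternatives, 10 stayed within the interval of the value reported (or equal to it) and 18 did not. Among these 10 was the longest peak-free stretch after peaks under 1 kb apart were joined, which joining could not change. With the upper 50% of scores, 2L held 54.9 peaks per Mb, its ratio to the other 4 long arms was 0.963 in density, 0.877 in median width and 0.732 in median spacing, and its longest peak-free stretch was 565 kb. With peaks under 1 kb apart joined, there were 40.4 regions per Mb, the ratios were 0.757 in density and 1.30 in spacing, and the 5 richest windows of 1 Mb held 39.2% of regions. With peaks on the ladder only, there were 45.4 per Mb, the ratios were 0.518 in density, 1.052 in width and 1.98 in spacing, the longest stretch was 418 kb, 22.6% of the 100 kb windows were empty and the 5 richest windows of 1 Mb held 38.1%. This last share was 46.0% as reported for all peaks, 43.9% with windows shifted by 0.5 Mb, and 42.7% for the next 5 without the richest window, a setting chosen after seeing the data. Fewer peaks enter each of the first 3 settings by construction, and no other cause was tested. Peaks of 2L alone gave the same background, 195.927, with scores shared by at least 5 peaks. No paired analysis was possible because single libraries have no values here, and no replicate could be left out for the same reason.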
